A study of Mus musculus with 6 samples.

Results

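Amisulpride-treated arthritic synovial fibroblasts (SFs) were compared with untreated ones over the genes of the mevalonate branch, the enzymes that carry acetyl-CoA to squalene. The branch was taken as 9 genes, Acat2, Hmgcs1, Mvk, Pmvk, Mvd, Idi1, Fdps, Ggps1 and Fdft1, which were picked by name from the 49548 genes of the deposited table. SFs are the connective tissue cells of the joint lining. Here they were primary cells from ankle joints of CBA C57BL/6J mice that were 8 weeks old and carried a human TNF transgene (hTNFtg), a model of destructive polyarthritis. Cells bearing CD45, a leukocyte surface protein, had been depleted at passage 1. All 6 libraries came from hTNFtg cells, 3 with no treatment according to the labels (the methods speak of vehicle, and the drug stock was made in DMSO) and 3 given 500 μM amisulpride, a blocker of dopamine and serotonin receptors, for 48 hours. Each library was made from RNA 3′ ends (QuantSeq) and read on an Ion Proton. The labels do not say whether replicates came from separate mice, so p-values measure the spread between these libraries.

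The mevalonate pathway makes the building block of sterols and of isoprenoids. Acetyl-CoA units are joined by thiolase (Acat2) and HMG-CoA synthase (Hmgcs1), and the product is then reduced to mevalonate. A pair of kinases (Mvk, Pmvk) and a decarboxylase (Mvd) turn mevalonate into isopentenyl diphosphate, which Idi1 isomerises. Fdps, the target of the aminobisphosphonate drugs used against bone loss, joins these units into farnesyl diphosphate. There the pathway divides, since Fdft1 (squalene synthase) commits farnesyl diphosphate to sterols, while Ggps1 extends it to geranylgeranyl diphosphate, used to anchor small GTPases in membranes. Many of these genes are known targets of SREBP2, a transcription factor that is released from the ER when membrane sterol is low, and that binds sterol regulatory elements beside the factors NF-Y and Sp1.

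RefSeq promoter sequence (GRCm38.p6, the build called mm10 in the study) was matched by symbol for 7 of the 9 members. Promoters of Fdps and Fdft1 were not analysed here. The 250 bases before the annotated start are printed here for 4 members, 5′ to 3′ on the gene's own strand. Hmgcs1 is shown because it alone held the longer sterol element motif and because its values split the treated libraries. Mvd and Idi1 are shown as genes with far lower treated values, and Ggps1 as a gene whose groups overlapped. Capitals mark TCACNCCAC (the longer sterol element motif, which contains the shorter CACNCCAC) and CCAAT (the core of an NF-Y box), on either strand, so that ATTGG is CCAAT read on the other strand.
Hmgcs1, chr13:119690101-119690350, plus strand: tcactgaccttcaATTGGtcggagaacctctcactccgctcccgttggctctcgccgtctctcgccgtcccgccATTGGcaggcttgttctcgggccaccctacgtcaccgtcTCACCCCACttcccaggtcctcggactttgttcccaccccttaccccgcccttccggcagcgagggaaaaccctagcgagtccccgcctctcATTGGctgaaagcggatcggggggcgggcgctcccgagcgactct
Mvd, chr8:122443423-122443672, minus strand: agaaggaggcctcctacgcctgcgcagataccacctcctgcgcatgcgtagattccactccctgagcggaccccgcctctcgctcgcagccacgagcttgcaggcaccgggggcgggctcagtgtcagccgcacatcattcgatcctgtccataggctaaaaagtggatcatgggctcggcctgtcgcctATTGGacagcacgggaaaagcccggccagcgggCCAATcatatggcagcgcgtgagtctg
Idi1, chr13:8885356-8885605, plus strand: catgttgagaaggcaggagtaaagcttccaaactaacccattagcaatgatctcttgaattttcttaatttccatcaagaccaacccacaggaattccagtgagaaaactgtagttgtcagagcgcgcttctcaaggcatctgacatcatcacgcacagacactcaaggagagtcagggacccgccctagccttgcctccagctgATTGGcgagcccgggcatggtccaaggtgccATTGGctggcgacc
Ggps1, chr13:14063489-14063738, minus strand: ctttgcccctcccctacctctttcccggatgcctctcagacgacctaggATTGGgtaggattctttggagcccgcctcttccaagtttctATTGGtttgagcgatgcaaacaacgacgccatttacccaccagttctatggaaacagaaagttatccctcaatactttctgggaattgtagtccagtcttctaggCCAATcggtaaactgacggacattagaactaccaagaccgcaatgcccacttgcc

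The longer motif TCACNCCAC was found in 1 of the 7 members with a window, Hmgcs1, at 137 bases before the start, and in 1.05% of 32851 mouse promoter windows of the same length. The shorter CACNCCAC was found in Hmgcs1 and Acat2 and in 5.29% of all windows. CCAAT was present in 6 of the 7 members and in 33.8% of all windows. Mvk held 5 copies, Hmgcs1 and Ggps1 held 3 each, Mvd and Idi1 held 2 each, and Pmvk held 1, while 10.1% of all windows held 2 or more. The Sp1-type motif GGGCGG, not marked in the sequences, was present in 5 of the 7 members and in 32.7% of all windows. Ggps1 thus had as many CCAAT copies as Hmgcs1 and more than Mvd or Idi1. For GGGCGG it had no match, like Pmvk, against 1 each in Acat2, Mvd and Idi1 and 2 each in Hmgcs1 and Mvk. A match describes letters only, and was not taken as a bound site. Pmvk has a second annotated start, whose window held none of the 3 marked motifs.

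**Figure D1:**
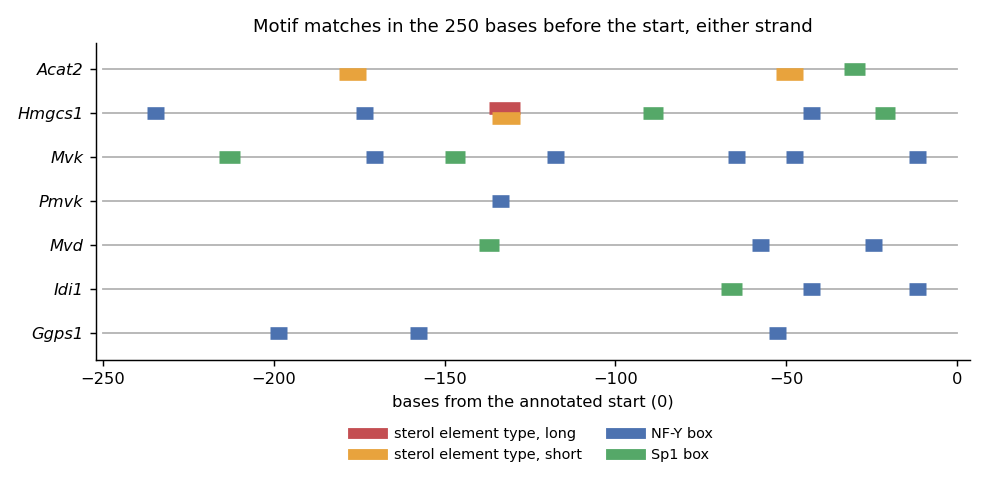
Motif matches on either strand in the 250 bases before the RefSeq start of 7 members, drawn by distance from the start in bases. Red and orange bars are the longer and shorter sterol element motifs, blue bars are CCAAT (NF-Y box) and green bars are the Sp1-type motif. CCAAT copies lie in 6 of the 7 genes, and the red bar in Hmgcs1 is the single longer sterol element match.

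Values are the authors' normalised counts, which were rounded, and the method of normalisation was not given in the sources used here. They allow a gene to be compared between libraries, and no level was compared between genes. Fold changes are treated over untreated on log2(normalised count + 1), each given ± SE, from limma fitted to 12614 genes with at least 10 normalised counts in at least 3 libraries, and p-values were adjusted over all 12614 (Benjamini-Hochberg). All 9 members passed this filter. A second criterion, the cut-offs of the study's methods, required a log2 fold change of 1 or more in size together with an unadjusted p under 0.05. As a scale for counts by unadjusted p alone, a limma p of 0.049 ranked 1353 among the 12614 genes, both directions together.

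All 9 members had a negative log2 fold change (for Hmgcs1 the mean of the unlogged counts went the other way), with a median of -1.09 against 0.00 for all genes tested, of which 49.9% were negative. Mvd, Fdps and Fdft1 fell with an adjusted p under 0.05, 3 of 9 members against 0.19% of all tested genes (24 genes). Pmvk and Idi1 also met the study cut-offs, making 5 of 9 against 3.01% (380 genes) for the lower direction. In 7 of 9 members every treated library lay under every untreated one, as it did for 8.66% of tested genes. The exceptions were Hmgcs1 and Ggps1. The members, like the other lists below, were chosen with earlier results of these data known. The shares of all genes are therefore given for scale and are not a blind comparison. With the replicate number as a block, Idi1 also passed (adjusted p 0.00688, limma), giving 4 of 9 against 1.05% of all genes. The adjusted calls depended on which libraries were used. With any 1 untreated library or amisulpride replicate 2 left out, none of the 9 members kept an adjusted p under 0.05 in limma, although Mvd, Idi1, Fdps and Fdft1 had unadjusted p-values of at most 0.0033 in each such fit. Without amisulpride replicate 1 the call held for Fdps alone (0.021), and without amisulpride replicate 3 it held for Mvd, Fdps and Fdft1 and was gained by Idi1 (0.0181).

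**Figure D2:**
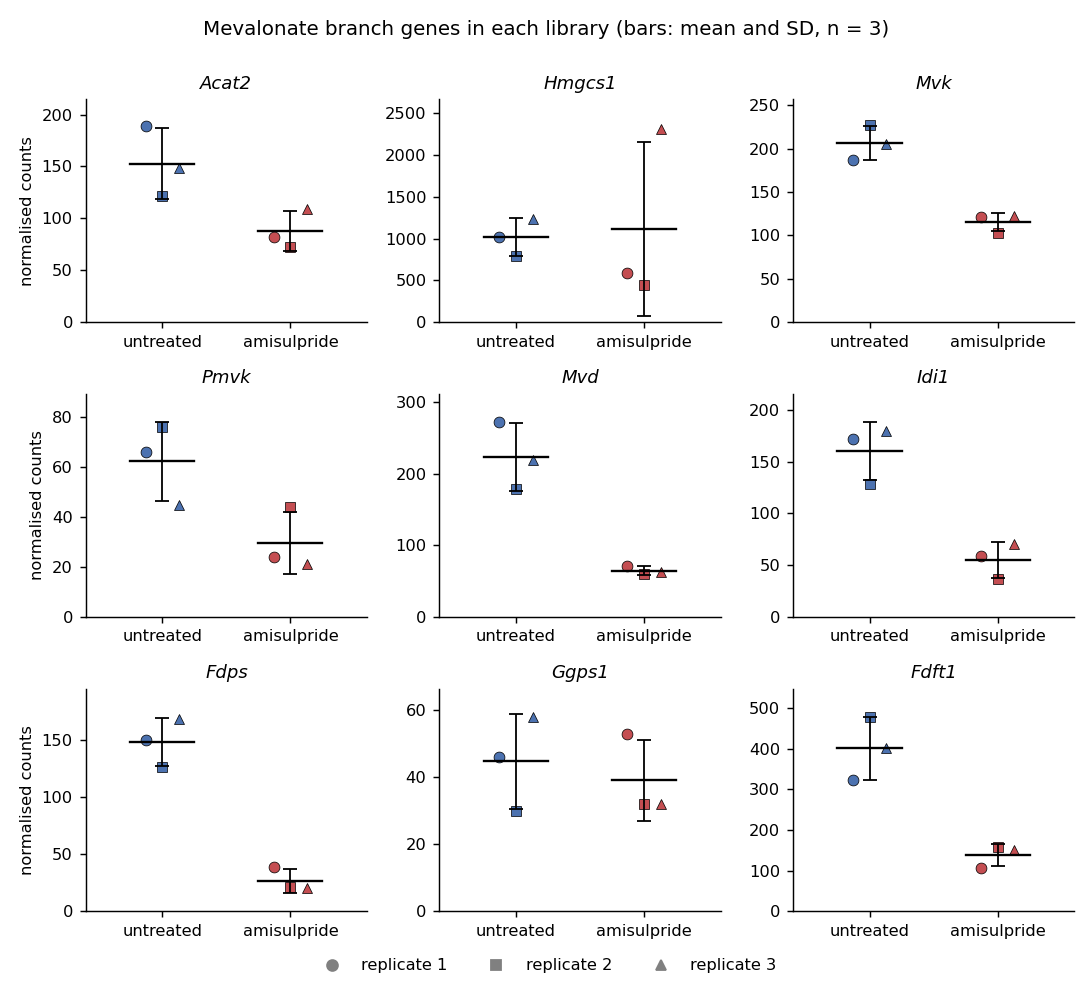
Normalised counts (linear axes from 0) of the 9 members in the 3 untreated (blue) and 3 amisulpride (red) libraries, with symbols for the replicate number and bars for the mean and SD (n = 3). The treated points lie under all untreated points in 7 panels, and the exceptions are Hmgcs1, where amisulpride replicate 3 is the highest of all at 2312, and Ggps1.

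The first step of the branch was lower in treated cells without passing either criterion. Acat2 (ENSMUSG00000023832, chr17:12942890-12960747, minus strand), which condenses acetyl-CoA units in the cytosol, had 189, 121 and 148 normalised counts in the untreated libraries and 82, 72 and 109 in the treated. The groups did not overlap, but the highest treated library came within 12 normalised counts of the lowest untreated one. The mean went from 153 ± 34.2 to 87.7 ± 19.1 (SD, n = 3 each), 1.74-fold lower, with a log2 fold change of -0.79 ± 0.29 (adjusted p = 0.313). The last 300 bases of its annotated protein-coding transcripts, pooled, shared 9.23% of their 50-base words with Acat3. This near copy had 15 to 30 normalised counts untreated and 4 to 27 treated. Such shares, here and below, are pooled over a gene's transcripts, so sharing at a single end can differ. Acat1, the mitochondrial thiolase, had higher values in treated cells, with 300, 527 and 435 against 529, 616 and 762, a log2 fold change of 0.62 ± 0.28 that missed both criteria (adjusted p = 0.452).

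Hmgcs1 (ENSMUSG00000093930, chr13:119690462-119708086, plus strand), the cytosolic HMG-CoA synthase, divided the treated libraries. Its untreated values were 1023, 786 and 1239, and its treated values were 581, 438 and 2312. Amisulpride replicates 1 and 2 lay under all untreated libraries, while replicate 3 was the highest of the 6. The treated mean was thus the higher on the linear scale, 1110 ± 1043 against 1016 ± 227. The log2 fold change was -0.25 ± 0.50 with a 95% interval of -1.36 to 0.85 (adjusted p = 0.886). Without amisulpride replicate 3 it was -0.98 (adjusted p = 0.119), whereas it was 0.01 without replicate 1 and 0.21 without replicate 2. Within replicate numbers, the log2 ratio of treated to untreated was -0.81 and -0.84 for numbers 1 and 2 and 0.90 for number 3. The value in replicate 3 was 4.53 times the mean of replicates 1 and 2, a ratio reached by 130 of 12614 tested genes (1.03%). The same ratio ran from 0.629 to 1.46 in the other 8 members, so that no other gene of the branch shared the high value.

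The kinases that phosphorylate mevalonate were lower in every treated library. Mvk (ENSMUSG00000041939, chr5:114444269-114460591, plus strand) had 187, 227 and 205 normalised counts untreated and 121, 103 and 122 treated, means of 206 ± 20.03 and 115 ± 10.7. Its spread within groups was small, and the log2 fold change was -0.83 ± 0.24 (adjusted p = 0.208), short of the study cut-off for size. Pmvk (ENSMUSG00000027952, chr3:89454541-89469013, plus strand) had 66, 76 and 45 untreated and 24, 44 and 21 treated. The groups were separated by 1 normalised count, between untreated replicate 3 and amisulpride replicate 2. The log2 fold change of -1.09 ± 0.37 met the study cut-offs (adjusted p = 0.285). It no longer met them without untreated replicate 2, amisulpride replicate 1 or amisulpride replicate 3 (-0.93, -0.98 and -0.88).

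Mvd (ENSMUSG00000006517, chr8:122433601-122443422, minus strand), the decarboxylase that makes isopentenyl diphosphate, fell 3.47-fold. It had 272, 178 and 219 normalised counts untreated and 71, 59 and 63 treated, with means of 223 ± 47.1 and 64.3 ± 6.11. The treated libraries lay close together, all at well under the lowest untreated value. The log2 fold change was -1.76 ± 0.27 (95% interval -2.34 to -1.18, adjusted p = 0.0222). Mvd lies inside the annotated gene Gm20388 on the opposite strand, which had 1694, 1523 and 1216 untreated and 1398, 1420 and 5707 treated (0.62, adjusted p = 0.681). Whether the counting used strand was not given in the sources used here, so reads of the pair could not be told apart with certainty.

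Idi1 (ENSMUSG00000058258, chr13:8885501-8892451, plus strand), the isomerase that makes dimethylallyl diphosphate, had 172, 128 and 180 normalised counts untreated and 59, 36 and 70 treated. Every treated library was at far under the lowest untreated value. The means were 160 ± 28.0 and 55 ± 17.3, 2.91-fold lower in treated cells. The log2 fold change of -1.56 ± 0.31 (95% interval -2.25 to -0.87) met the study cut-offs, with an adjusted p of 0.0678 and of 0.00688 with the block. The pseudogene Gm13502, which shared 44.2% of the words of the pooled Idi1 transcript ends, had at most 1 normalised count in any library.

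Fdps (ENSMUSG00000059743, chr3:89093588-89101959, minus strand), which makes farnesyl diphosphate, had the largest decrease of the 9 members. Its 3 untreated libraries held 150, 126 and 168 normalised counts, and its treated libraries 39, 21 and 20, or 18.0% of the untreated mean. The groups lay far apart, and the log2 fold change was -2.48 ± 0.33 (95% interval -3.21 to -1.76, adjusted p = 0.013). The lowest treated value corresponds to about 11.2 reads, so counting error is large there. The estimate kept the size in each fit with a library left out, from -2.78 to -2.32, and Fdps ranked 7 by p among all tested genes. Its pooled transcript ends shared 52.7% of their words with Gm3571, a processed pseudogene. Misassigned Fdps reads there cannot be told apart from the pseudogene's own. Gm3571 had 109, 90 and 141 untreated and 27, 25 and 21 treated, a log2 fold change of -2.16 (adjusted p = 0.0156). Summed, the pair had 259, 216 and 309 against 66, 46 and 41, a log2 fold change of -2.35 ± 0.28 (adjusted p = 0.0127), chosen after the values were seen. An overlapping gene model on the same strand, Gm43738, was at 0 in all libraries.

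Fdft1 (ENSMUSG00000021273, chr14:63145153-63177793, minus strand), which makes squalene, fell 2.89-fold. It had 324, 479 and 403 normalised counts untreated and 107, 158 and 152 treated, with means of 402 ± 77.5 and 139 ± 27.9. Treated values of Fdft1 were all at most 158, and the lowest untreated value was 324. The log2 fold change was -1.53 ± 0.27 (95% interval -2.11 to -0.94, adjusted p = 0.0443). Fdft1 overlaps Ctsb, which encodes a lysosomal protease, by 767 bases on the opposite strand, and Ctsb had 2122 to 3281 untreated and 2415 to 3328 treated (0.13, adjusted p = 0.887).

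Ggps1 (ENSMUSG00000021302, chr13:14052449-14063401, minus strand), on the geranylgeranyl arm, had 46, 30 and 58 normalised counts untreated and 53, 32 and 32 treated. The groups overlapped throughout, and only within replicate number 3 was the treated library lower. The log2 fold change was -0.18 ± 0.37 with a 95% interval of -0.99 to 0.62 (adjusted p = 0.886), and this interval includes the estimate of Mvk, -0.83. Without untreated replicate 3 the estimate was 0.03. Ggps1 overlaps Arid4b by 170 bases on the opposite strand, and Arid4b had 22 to 36 untreated and 21 to 38 treated (-0.01, adjusted p = 0.996). The pseudogene Gm5630, which shared 18.1% of the words of the pooled Ggps1 transcript ends, had no row to compare.

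**Figure D3:**
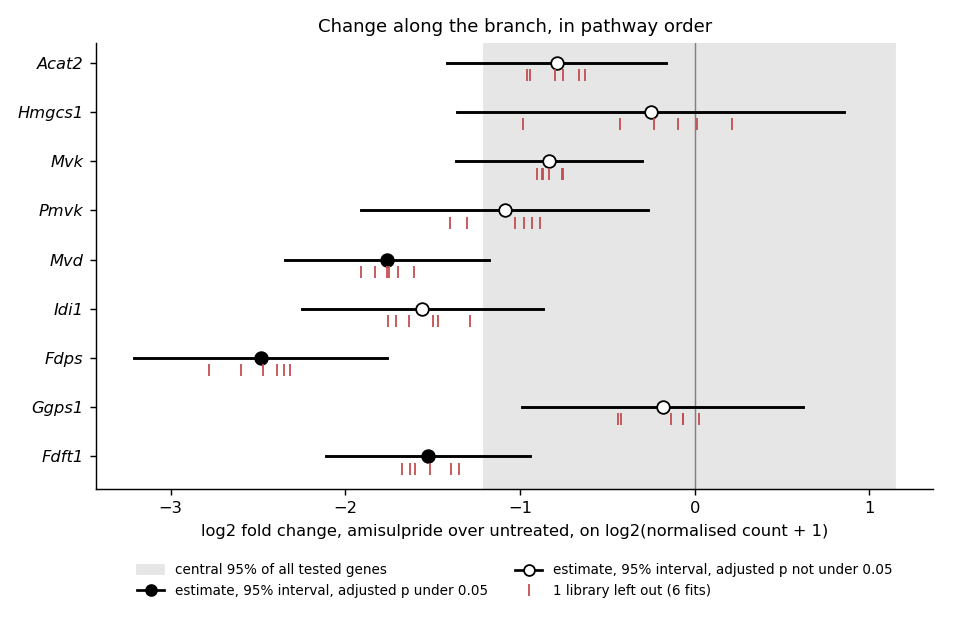
Log2 fold change (amisulpride over untreated) of the 9 members in pathway order, with 95% intervals. Filled points have an adjusted p under 0.05, red ticks are the estimates with 1 library left out, and the shaded band is the range of the central 95% of all tested genes, -1.21 to 1.15. Mvd, Idi1, Fdps and Fdft1 lie to the left of the band, and the ticks of Hmgcs1 spread from -0.98 to 0.21.

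The genes at the branch point were set against each other inside each library, which removes the library's own scale. A ratio of 2 genes' counts is not a molar ratio, so only its change was compared. The log2 ratio of Fdps to Ggps1 was 1.68, 2.03 and 1.52 in the untreated libraries and -0.43, -0.58 and -0.65 in the treated. The ratio was lower in every treated than in any untreated library, a difference of -2.30 (exact two-sided permutation test, p = 0.1, the smallest that 3 against 3 can give, 0.15 after adjustment over 3 ratios). The log2 ratio of Fdft1 to Ggps1 was 2.79, 3.95 and 2.78 untreated and 1.0, 2.27 and 2.21 treated, also without overlap (difference -1.34, exact p = 0.1, adjusted 0.15). The log2 ratio of Fdps to Fdft1 was -1.11, -1.92 and -1.26 untreated and -1.43, -2.85 and -2.87 treated, with overlap at amisulpride replicate 1 (difference -0.96, exact p = 0.2, adjusted 0.2). None of the 3 ratios could pass 0.05 in this design.

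**Figure D4:**
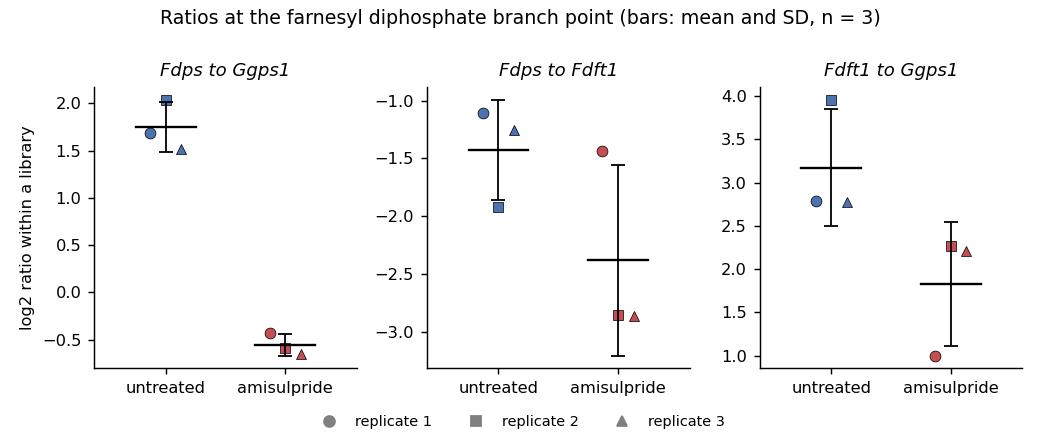
Log2 ratio of normalised counts within each library for the 3 pairs of genes around farnesyl diphosphate, with symbols for the replicate number and bars for the mean and SD (n = 3). The Fdps to Ggps1 ratio is lower in the treated libraries (-0.65 to -0.43) than in the untreated ones (1.52 to 2.03).

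Libraries of a group did not order the members alike. Untreated replicate 2 had the lowest untreated value of Acat2, Hmgcs1, Mvd, Idi1, Fdps and Ggps1, yet the highest of Mvk, Pmvk and Fdft1. Amisulpride replicate 2 was the lowest treated library for 5 members (Acat2, Hmgcs1, Mvk, Mvd and Idi1), tied with replicate 3 for Ggps1, and the highest for Pmvk and Fdft1. Pmvk and Fdft1 thus had their highest value in replicate 2 of both groups. Within each replicate number, 8 of 9 members were lower in the treated library. The exception was Ggps1 for numbers 1 and 2 and Hmgcs1 for number 3.

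Over the 6 libraries, Idi1 and Mvd followed the mean profile of the 9 members most closely (r = 0.98 each), and Ggps1 (0.34) and Hmgcs1 (0.33) least, a description in which each member is part of the mean. The protein-coding genes outside the branch with the highest r to that profile were Tmed1, Fxyd2, Sumo3, Tmf1 and Plcb3 (r = 0.9885 to 0.9956). Tmed1, a trafficking protein of the early secretory pathway, had 293, 264 and 295 normalised counts untreated and 108, 103 and 122 treated. Fxyd2, a regulator of the sodium pump, had 129, 111 and 120 untreated and 2, 0 and 4 treated, where each treated value lies under that of 3 reads in its library. These correlations largely follow the difference between the groups.

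The 9 genes lie on 6 chromosomes, with Hmgcs1, Idi1 and Ggps1 on chromosome 13 and Pmvk and Fdps on chromosome 3. Of 94 other tested genes within 500 kb of any member, 1 (Zfp131, near Hmgcs1) met the study cut-offs in the lower direction. Between Fdps and Pmvk, 353 kb apart, lay 21 tested genes, of which 0 met them in limma, with a median log2 fold change of -0.02.

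Of the enzymes after squalene, all 12 listed were tested, all had a negative log2 fold change, 8 met the study cut-offs and the median was -1.19. The other 4 met no criterion, with overlapping groups and log2 fold changes from -0.83 to -0.05, the last in Ebp, a sterol isomerase. Of the 8, Nsdhl also overlapped between the groups, with 46, 88 and 90 untreated and 34, 23 and 48 treated. Tm7sf2, another of the 8, passed narrowly (limma, unadjusted p = 0.049), with about 4.46 reads in its lowest library. Cyp51, the lanosterol demethylase, fell from 859, 669 and 587 to 255, 245 and 217 (-1.54 ± 0.24, adjusted p = 0.0262). Sqle, the epoxidase that takes squalene onward, had 211, 157 and 158 against 84, 64 and 82 (-1.18 ± 0.27, adjusted p = 0.0966). Sc5d (-1.21), Msmo1 (-1.42) and Hsd17b7 (-1.23) also met the study cut-offs. Cyp51 alone of the 12 had an adjusted p under 0.05, and 6 of the 12 did with the replicate block.

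Of the other genes listed beside the branch, 6 of 8 were tested, 4 with a negative and 2 with a positive log2 fold change. Idi2, a second isomerase gene, was at 0 in all libraries. Among 16 tested SREBP regulators and genes of sterol uptake, of 17 listed, 3 met the study cut-offs, all lower, and the median was -0.12. They included Stard4, a sterol carrier, with 83, 85 and 96 against 20, 23 and 43 (-1.66 ± 0.35), and Insig1, which holds SREBP in the ER, with 62, 44 and 82 against 30, 12 and 36 (-1.33 ± 0.44). In limma 0 of the 16 had an adjusted p under 0.05 (4 had an unadjusted p under 0.05), while 2 did with the block, Stard4 (0.0126) among them. Srebf2, which encodes SREBP2, overlapped between the groups, with 93, 129 and 167 against 92, 103 and 81 (-0.46 ± 0.29, adjusted p = 0.609). Srebf1, of the same list, was lower in treated cells without overlap, with 251, 384 and 363 against 228, 232 and 131. Its log2 fold change of -0.78 ± 0.30 missed both criteria (limma, unadjusted p = 0.0242, adjusted p = 0.355).

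A list of users of isoprenoid diphosphates had 17 of 18 genes tested. It held the prenyltransferases and also genes that act on prenylated proteins or on dolichol, so it is broader than enzymes using farnesyl or geranylgeranyl diphosphate. None met the study cut-offs in limma, 1 had an unadjusted p under 0.05 (Trit1, which modifies tRNA with an isoprenoid and is named for that count), and the median was -0.09. Trit1 had 105, 60 and 66 against 42, 59 and 29 (-0.83 ± 0.36, adjusted p = 0.426).

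**Figure D5:**
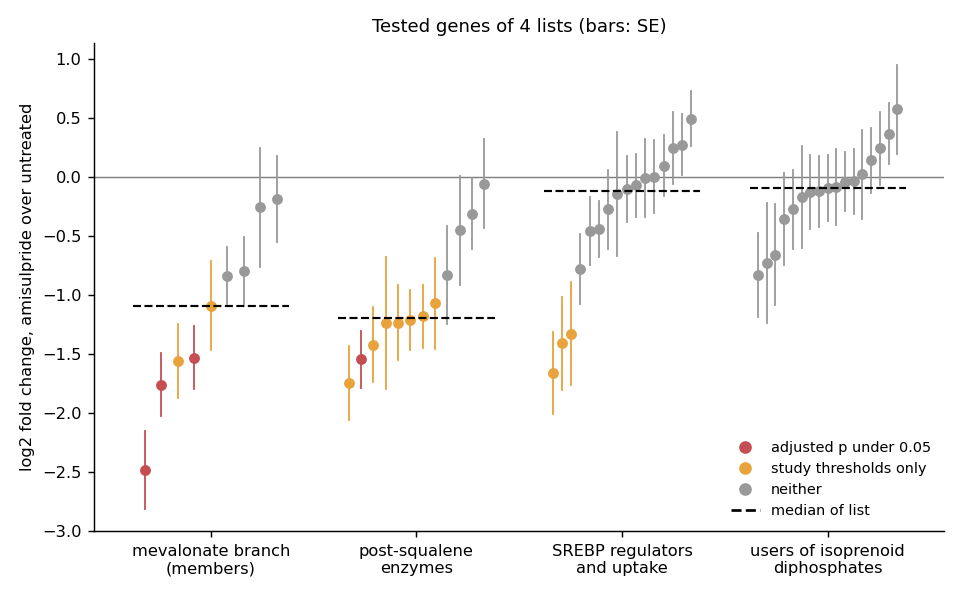
Log2 fold change (amisulpride over untreated) of each tested gene in 4 lists, with bars for the SE and dashed lines for the list medians. Red points have an adjusted p under 0.05 and orange points meet the study cut-offs only. The medians of the mevalonate branch (-1.09) and the post-squalene enzymes (-1.19) lie lower than those of the SREBP and uptake genes (-0.12) and of the listed users of isoprenoid diphosphates (-0.09).

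Library totals ran from 3832980 to 4504242 normalised counts, and the value of 1 read, estimated from the steps between low values, from 0.835 to 1.79, with little certainty for untreated replicate 1. Amisulpride replicate 3 stood apart on the first principal component (73.9 against -38.2 to 10.4 in the others). Fibroblast markers summed to 44912 to 60420 normalised counts untreated and 52789 to 91880 treated, and 0 of 12 had an unadjusted p under 0.05 in limma, against 4 with the replicate block (2 lower and 2 higher). Of these 1, Lum, then met the study cut-offs, with 213, 546 and 168 untreated and 142, 290 and 50 treated. Of 12 myeloid and leukocyte markers 9 were tested and 2, Csf1r and Cd14, met the study cut-offs in the lower direction. Their summed levels were 2343 to 3954 untreated and 2112 to 4004 treated, with Cd3e and Cd79a at 0. Lyz2 gave most of these sums, with 3046, 1733 and 2188 untreated and 3287, 1879 and 1394 treated. With the block 3 markers met the study cut-offs, adding Ptprc, and Cd14 had an adjusted p of 0.012. Ptprc overlapped between the groups, with 38, 12 and 18 untreated and 23, 5 and 5 treated. Of the 9 tested, 7 had a negative log2 fold change and 2 a positive one, Cd68 (0.31) and Adgre1 (0.83). Adgre1 had 39, 25 and 14 untreated and 59, 43 and 32 treated. Csf1r overlapped between the groups, with 114, 93 and 76 against 41, 23 and 100. Endothelial markers summed to 74 to 86 untreated and 25 to 62 treated (1 of 7 tested, Egfl7, which gave most of the sum, with Cdh5 and Tie1 at 0), and adipocyte markers to 308 to 328 and 134 to 252 (1 of 6 tested, Fabp4, at 303 to 324 and 128 to 229, with Adipoq, Cidec and Lep at 0). Pparg, an adipocyte marker too low to be tested, went the other way without overlap, with 5, 1 and 4 untreated and 6, 11 and 23 treated. Chondrocyte markers summed to 589 to 1261 and 815 to 1612 (2 of 6 tested, Matn1 at 0). Among proliferation genes, 11 of 12 were tested, 1 (Mki67) met the study cut-offs and 6 had an unadjusted p under 0.05, all lower, with sums of 938 to 1380 and 705 to 941. Mki67 overlapped between the groups, with 28, 24 and 11 untreated and 3, 3 and 18 treated, the lowest about 2.24 reads. The part of these markers in the lower values of the mevalonate genes was not tested, and in bulk RNA fewer cells of a type and less RNA per cell cannot be told apart.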

How the data were processed

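RNA 3′ ends of 3 untreated and 3 amisulpride-treated hTNFtg SF cultures were sequenced. The authors mapped reads to mm10 with TopHat2, mapped the remainder with Bowtie2, counted reads per gene with GenomicRanges, normalised the counts (method not given in the sources used here) and tested them with DESeq. The deposited values are a score, namely normalised counts rounded by the authors, so no count model was run. Another 12 per-library columns, and the deposited fold changes and p-values, were not used. Values were tested with limma 3.58.1 (R 4.3.3; log2(value + 1), moderation with variance trend, two-sided), with no block, over 12614 genes. The fit was tested on simulated data.

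The members and lists were chosen with earlier results of these data known. Named genes were all members, genes overlapping a member, and up to 6 genes per list past the study cut-offs by lowest p. The rule also named the 5 protein-coding genes most correlated with the members' mean profile. Acat1, Srebf1, Srebf2, Nsdhl, Tm7sf2, marker genes and counts of 5 or fewer are named beyond it. Some items the rule names are not reported here. The labels do not say whether same-numbered libraries were paired. Deviations from the group means of same-numbered libraries correlated (r = 0.20 to 0.24, against -0.15 to -0.08 for other pairs). Deviations within a group cancel, so these correlations depend on each other and do not establish pairing. The replicate block was run as an alternative. Others changed the pseudocount, filter, scaling, variance model and libraries used. Intervals and read estimates cover counting error or the spread of 3 libraries only. RefSeq promoters were matched by symbol.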

Additional observations from a re-analysis of the deposited data

How the results depend on the processing

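The number of tested genes with an adjusted p under 0.05, 36 in all, was 57 with a pseudocount of 5, 57 without the filter, 66 with quantile normalisation, 195 with array weights and 263 with the replicate block, and ran from 0 to 120 with 1 library left out. The number past the study cut-offs, 719, was 1313 without the filter and ran from 563 to 1000 with 1 library left out. The 3 members with an adjusted p under 0.05 became 1 without the variance trend (Fdps) and 0 to 4 with 1 library left out. The members' median of -1.09 was -0.99 with a pseudocount of 5, -0.90 with array weights and -1.30 to -0.95 with 1 library left out. With 1 library left out, Hmgcs1 ranged from -0.98 to 0.21, turning positive without amisulpride replicate 1 (0.01) or 2 (0.21), and Ggps1 from -0.44 to 0.027, turning positive (0.027) without untreated replicate 3. With 1 library left out, 0 to 1 of the other genes of the branch and 0 to 1 users of isoprenoid diphosphates met the study cut-offs (1 and 0 with all libraries). Pmvk missed them with a pseudocount of 5 and with array weights. The cause of these shifts was not tested. Of 145 alternative values for the 9 members, 137 kept their direction and side of the study cut-offs, 5 (all of Pmvk) fell short of them and 3 changed sign. Summing Fdps with Gm3571, an alternative chosen after seeing the data, gave -2.35. The replicate block changed the adjusted call of no member but Idi1. With 3 libraries a group and about 11 reads in the lowest library of Fdps and Pmvk, small differences were not detectable.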
